A study of Mus musculus with 8 samples.

Results

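DNA replication starts with the licensing of origins, at which the origin recognition complex, Cdc6 and Cdt1 load the MCM2-7 helicase on DNA. In S phase the helicase is activated, polymerases and the sliding clamp copy both strands, and nucleotide supply and histone deposition keep pace. In many cell types, transcription of these genes is held back by the RB proteins and released through E2F factors when growth factors drive a cell out of G1, so their mRNA is widely used as a readout of cycling cells, NSCs and their progeny included. The 52 genes described here were chosen by name for these roles. Each was represented by the probe set with the highest mean signal over all arrays among the probe sets annotated to that gene alone. Of the 18193 genes on the array named in this way, 51 were among the 52 (Chaf1a had no probe set of its own).

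NSCs grown as secondary neurospheres from mouse forebrain striatum were cultured with rcCHIL3 for 7 days (rcCHIL3 7D) or in the control medium for 7 days (MHM + GF 7D), and for 3 days with rcCHIL3 (rcCHIL3 3D) or in the control medium (MHM + GF 3D). Each of the 4 groups had 2 Affymetrix mouse arrays from independent experiments, 8 in all. The rcCHIL3 medium, labelled RcECF-L, was medium hormone mix (MHM) conditioned by HEK293T cells, a human embryonic kidney cell line, that had been transfected with Chil3, and the culture scheme lists it apart from an arm with added growth factors. The control, labelled MHM, held FGF-2 and EGF according to the study's methods, and all neurospheres had been grown in that medium before. The presence of rcCHIL3, the conditioning of the medium and the absence of added FGF-2 and EGF therefore cannot be told apart in any comparison of the media. The series describes adult brain, whereas the methods name both embryonic and adult striatum.

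Signals are linear MAS5 intensities, rescaled so that each array averages 100. The deposited array averages were 267.3 to 316.6, the correlation between the arrays of a group was 0.992 to 0.994, and 30.1% to 31.4% of probe sets reached a signal of 50. Changes are differences of log2(signal + 20) with their standard error (SE) from limma, with Benjamini-Hochberg adjusted p-values over the 15679 probe sets that reached 50 on at least 2 arrays. A gene was called lower or higher at an adjusted p under 0.05. Of the 51 genes, 43 passed this filter. The other 8 (Orc1, Cdc6, Cdc45, Tyms, Chaf1b, Ccne1, Ccne2 and E2f1) were tested in a fit over all 45037 probe sets. Mcm10, Pola2, Pole, Pole2 and Tk1 passed only through the MHM + GF 3D arrays, so a lower value elsewhere was built into their selection. Mcm3, Gins1, Gins2, Prim2, Pold1, Rfc5, Brca1 and Chek1 were under 50 on every rcCHIL3 array and passed only through MHM + GF arrays. Mcm2 and Rfc3 also needed MHM + GF arrays to pass. For all of these genes the filter favoured a lower value in rcCHIL3. Of 11 markers of neural stem and progenitor cells, 10 had a probe set and passed the filter, with a summed signal of 9260 to 9330 in rcCHIL3 7D, 10600 in MHM + GF 7D, 8120 to 8490 in rcCHIL3 3D and 10500 to 11000 in MHM + GF 3D. Bright markers such as Fabp7, Vim and Sox2 made up most of that sum. Nes and Hes1 passed only through the MHM + GF 3D arrays, and Nes, the intermediate filament nestin, had 18.9 and 8.68 in rcCHIL3 7D, 32.2 and 27.7 in MHM + GF 7D, 24.9 and 25.5 in rcCHIL3 3D and 187 and 186 in MHM + GF 3D. Egfr, the EGF receptor, had 215 and 218 in rcCHIL3 3D and 846 and 793 in MHM + GF 3D, whereas Prom1 had 374 and 364 in rcCHIL3 3D and 273 and 253 in MHM + GF 3D. The part of these marker differences in the levels of the replication genes was not tested.

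Replication and S phase genes were lower in rcCHIL3 than in MHM + GF on both days. The helicase subunit Mcm5, geminin, the ribonucleotide reductase subunit Rrm2, the clamp-associated factor Pclaf and the chromatin protein Uhrf1 were the 5 lowest relative to MHM + GF at 3D on the log2(signal + 20) scale. By the ratio of group means Tk1 was lowest (0.128). At 7D, 36 of the 43 genes were lower in rcCHIL3, 1 was higher and 6 did not pass the test, where 22.7% of all tested probe sets were lower and 21.3% were higher. At 3D, 42 were lower, none was higher and 1 did not pass, where 22.5% of all tested probe sets were lower and 27.7% were higher. The median log2 change of the 43 genes was -0.61 at 7D and -1.13 at 3D, against medians over all tested probe sets of -0.01 and 0.03. These counts include the genes whose lower value in rcCHIL3 was favoured by the filter. In the fit without a filter, 35 of all 51 genes were lower at 7D (7.90% of all probe sets) and 44 at 3D (9.29%). The medians there were -0.57 and -0.97.

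On the arrays themselves, both rcCHIL3 arrays lay below both MHM + GF arrays for 44 of the 51 genes at 7D, where this held for 36.8% of all tested probe sets, and for 50 of the 51 at 3D, where it held for 34.8%. The median log2(signal + 20) of the 43 genes was 6.35 and 6.30 on the rcCHIL3 7D arrays, against 7.07 and 7.02 on the MHM + GF 7D arrays. It was 6.53 and 6.56 on the rcCHIL3 3D arrays, against 7.74 on both MHM + GF 3D arrays. MHM + GF 3D had the highest group mean for 46 of the 51 genes. The exceptions, Pola1, Rpa1, Fen1, Cdc25a and E2f1, were highest in MHM + GF 7D. The lowest group mean was in rcCHIL3 7D for 34 genes and in rcCHIL3 3D for 14. The same 4-step order, MHM + GF 3D above MHM + GF 7D above rcCHIL3 3D above rcCHIL3 7D, was found for 34 of the 51. Of the 43 genes, 22 had several probe sets past the filter and none was called in opposite directions between the media, but the call at 7D differed between probe sets for Cdc25a, Fen1, Pold1, Prim2, Rpa2 and Rrm1, and at 3D for Rpa1 and Slbp. In whole neurospheres, fewer replicating cells and less of these mRNAs in each cell cannot be told apart.

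**Figure D1:**
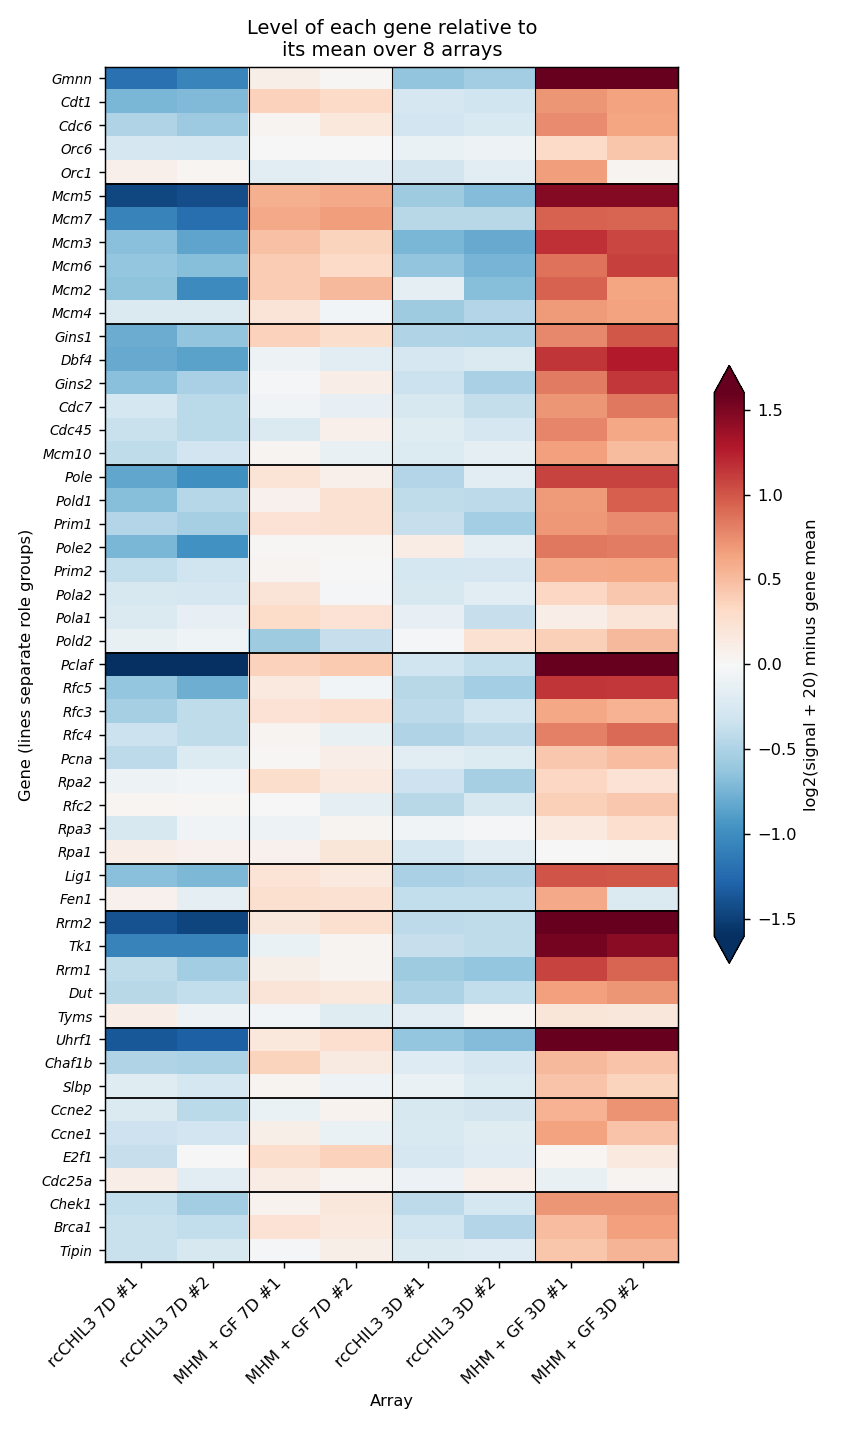
Levels of the 51 genes on the 8 arrays, as log2(signal + 20) minus the mean of that gene over all arrays (colour), with genes in rows, grouped by role, and arrays in columns. MHM + GF 3D is the highest group for 46 genes, and the colours for Cdc25a, Rpa1 and Tyms stay pale on all arrays.

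Markers of other neural cell types also differed between the groups. The summed signal of 5 astrocyte markers was 8220 to 8740 in rcCHIL3 7D, 7970 to 8100 in MHM + GF 7D, 6680 to 6930 in rcCHIL3 3D and 4100 to 4120 in MHM + GF 3D. For the 5 oligodendrocyte progenitor markers it was 1010 to 1040 in rcCHIL3 7D, 1270 to 1310 in MHM + GF 7D, 2160 to 2220 in rcCHIL3 3D and 2740 to 2830 in MHM + GF 3D. Single markers did not all follow these sums. Aldoc was lowest in rcCHIL3 3D (1210 and 1280, against 1660 and 1680 in MHM + GF 3D), whereas Gfap had 842 and 978 in rcCHIL3 3D and 57.6 and 46.3 in MHM + GF 3D. Sox10 was highest in rcCHIL3 3D (420 and 414, against 243 and 291 in MHM + GF 3D). The 4 myelin markers with a probe set summed to 3160 to 3350 in rcCHIL3 7D, 2910 to 2990 in MHM + GF 7D, 2770 to 2810 in rcCHIL3 3D and 1500 to 1520 in MHM + GF 3D. The 5 neuroblast and neuron markers summed to 1040 to 1160 in rcCHIL3 7D, 1700 to 1740 in MHM + GF 7D, 1370 to 1380 in rcCHIL3 3D and 1300 to 1340 in MHM + GF 3D. Map2 made up most of that sum, with 1010 and 1020 in rcCHIL3 3D and 1170 and 1220 in MHM + GF 3D. At 3D the neuroblast marker Dcx went the other way, with 236 and 204 in rcCHIL3 3D and 74.7 and 74.1 in MHM + GF 3D. So did Tubb3, with 62.9 and 58.8 in rcCHIL3 3D and 25.8 and 18.6 in MHM + GF 3D. At 7D both were lower in rcCHIL3. Dcx had 69.6 and 64.8 in rcCHIL3 7D and 223 on both MHM + GF 7D arrays. Tubb3 had 18.4 and 18.5 in rcCHIL3 7D and 111 and 85.6 in MHM + GF 7D. Ependymal and choroid plexus markers summed to 981 to 1170 in rcCHIL3 7D, 748 to 1020 in MHM + GF 7D, 502 to 842 in rcCHIL3 3D and 408 to 596 in MHM + GF 3D. Replicates of Ttr were far apart, with 146 and 477 in rcCHIL3 3D and 30.3 and 171 in MHM + GF 3D. Otx2 went against the sum, with 193 and 197 in rcCHIL3 7D and 287 and 344 in MHM + GF 3D. Mural and fibroblast markers, of which Col1a1 and Dcn stayed below 10 on all arrays, summed to 81.2 to 90.2 in rcCHIL3 7D, 431 to 473 in MHM + GF 7D, 69.4 to 80.3 in rcCHIL3 3D and 35.7 to 44.7 in MHM + GF 3D. The part of these markers, too, was not tested. Microglial markers summed to at most 46.1 and endothelial markers to at most 45.6 on any array, and 4 of 5 in each list (Aif1, Cx3cr1, Ptprc and Itgam, and Pecam1, Cdh5, Tek and Cldn5) were below 10 on all arrays.

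**Figure D2:**
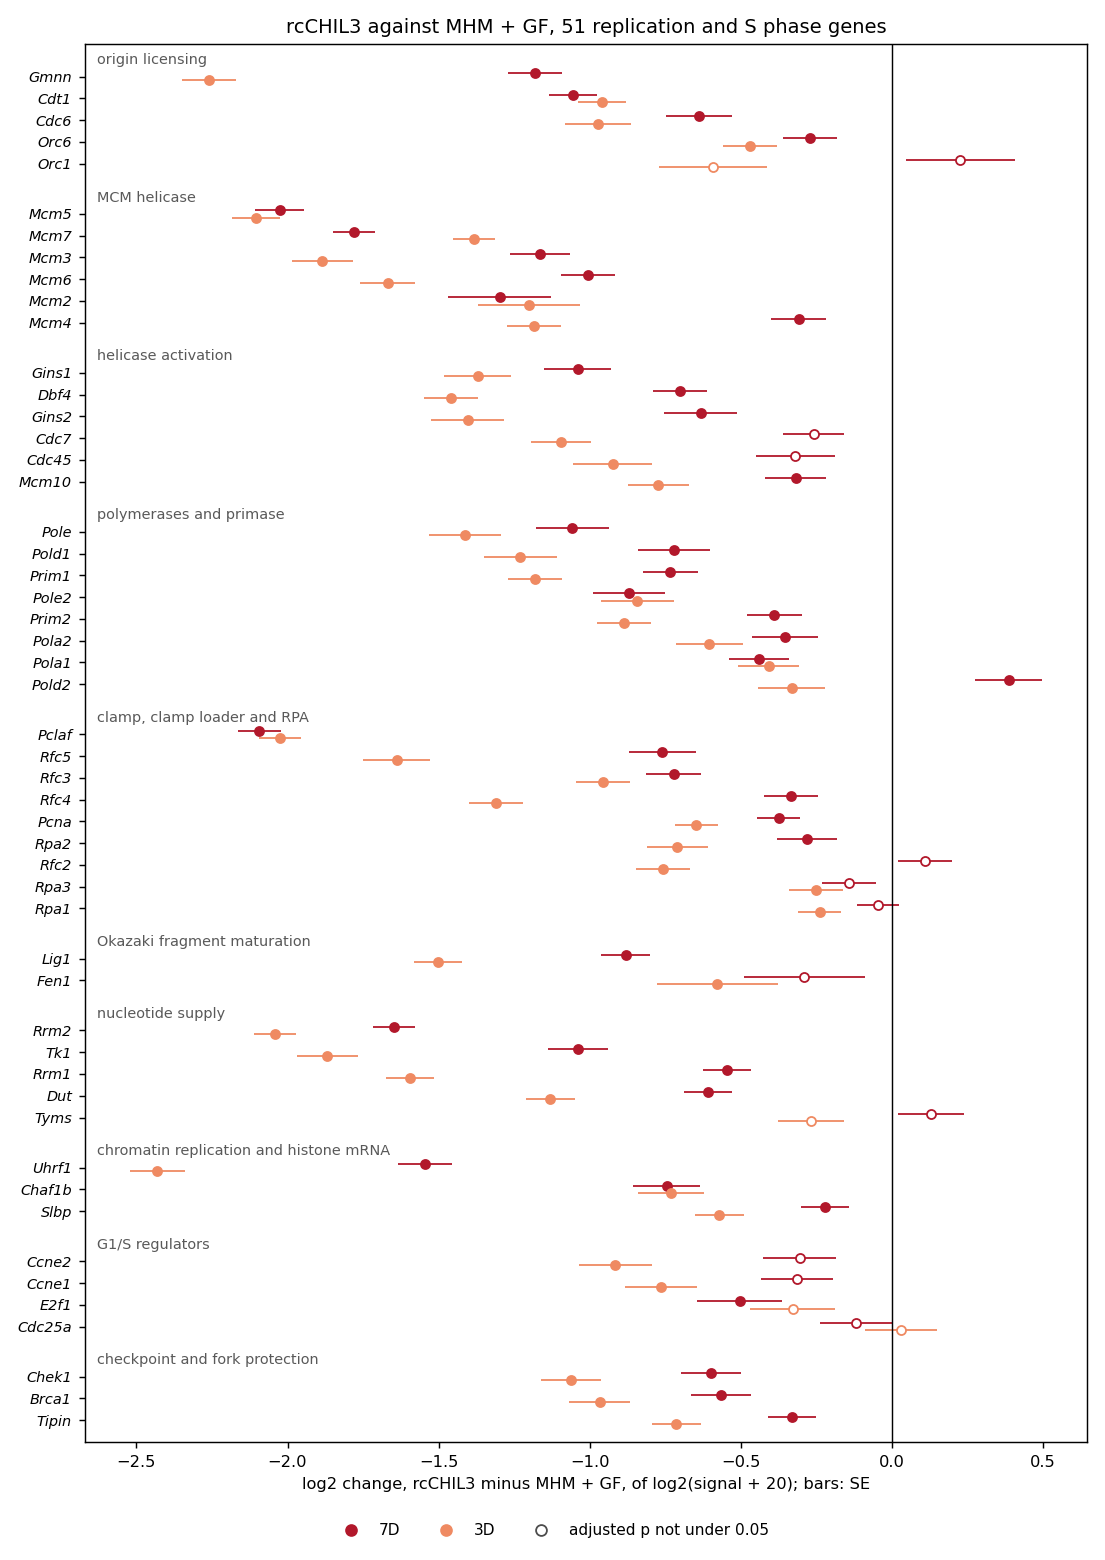
Log2 change between rcCHIL3 and MHM + GF at 7D (red) and 3D (orange) for the 51 genes, by role, with bars for the SE. Filled points had an adjusted p under 0.05, and the 8 genes under the filter were tested over all probe sets. Nearly all points lie left of 0, and Pold2 is the 1 filled point to its right.

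Promoters of these genes were searched for the sites that E2F factors and other cell cycle regulators bind, from 250 bases before to 50 after the RefSeq start (GRCm38.p6), on both strands. An E2F site was counted as TTTCCCGC, TTTGGCGC, TTTCGCGC or TTTGCCGC. Of the 52 genes, 43 had a promoter in the table, with 50 starts, and 15 of the 43 (34.9%) held an E2F match, as did 2.6% of all 27025 genes and 2.26% of all 32851 promoters. The CCAAT box (CCAAT) was in 58.1% of the 43 and in 41.1% of all genes, and the GC box (GGGCGG) in 74.4% and 38.2%. The CHR element (TTTGAA), known from genes of late cell cycle phases, was in 14% of the 43 and 20.2% of all genes. Other replication genes, a list of 65 with 52 promoters matched, were close to the 43 in E2F matches (40.4%). Mitosis genes, a list of 32 with 28 matched, held an E2F match in 3.57% and a CHR match in 75%. These matches are letters in a window and no measured binding.

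Of the genes with a matched promoter and a probe set, the 15 with an E2F match had a median log2 change between rcCHIL3 and MHM + GF of -0.88 at 7D and -1.23 at 3D, and the 27 without one had -0.35 and -0.77. The ranges overlapped, from -2.09 (Pclaf) to 0.23 (Orc1) with a match and from -1.65 (Rrm2) to 0.39 (Pold2) without one at 7D. No test was made of this difference. The 250 bases before the start are shown for 3 MCM subunits and Uhrf1, which were among the genes lowest relative to MHM + GF, and for Cdc25a and Pold2, which were not, so that the letters can be set beside the values. Each of these low genes holds a match, which was not so for all low genes. Rrm2 (-1.65 at 7D and -2.04 at 3D) and Tk1 (-1.04 and -1.87) had no match and are not shown. E2F matches are in capitals. In Mcm5 (chr8:75109259-75109508, plus strand) 2 matches overlap, from 153 and from 149 bases before the start. Mcm6 (chr1:128359706-128359955, minus strand) has an overlapping pair from 110 and 106 bases and another from 47 bases before the start. The matches of Mcm7 (chr5:138171884-138172133, minus strand), Uhrf1 (chr17:56304063-56304312, plus strand) and Cdc25a (chr9:109875329-109875578, plus strand) begin 165, 185 and 67 bases before it. A further Mcm7 match begins at base 17 counted from the start and lies outside the 250 bases shown. Mcm7, Uhrf1 and Pold2 have 2 starts each, and the start with more E2F matches, then more CCAAT matches, is shown. The upstream sequence of Pold2 (chr11:5878257-5878506, minus strand) holds none.
Mcm5: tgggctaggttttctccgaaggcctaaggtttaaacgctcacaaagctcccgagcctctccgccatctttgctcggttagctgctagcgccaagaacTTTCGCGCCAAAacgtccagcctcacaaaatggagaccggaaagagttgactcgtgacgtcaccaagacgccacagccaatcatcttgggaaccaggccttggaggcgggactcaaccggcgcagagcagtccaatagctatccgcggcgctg
Mcm6: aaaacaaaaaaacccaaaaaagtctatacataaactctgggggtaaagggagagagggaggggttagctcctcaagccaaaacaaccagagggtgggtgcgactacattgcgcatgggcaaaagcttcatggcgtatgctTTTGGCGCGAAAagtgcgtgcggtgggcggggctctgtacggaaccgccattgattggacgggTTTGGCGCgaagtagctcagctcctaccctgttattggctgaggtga
Mcm7: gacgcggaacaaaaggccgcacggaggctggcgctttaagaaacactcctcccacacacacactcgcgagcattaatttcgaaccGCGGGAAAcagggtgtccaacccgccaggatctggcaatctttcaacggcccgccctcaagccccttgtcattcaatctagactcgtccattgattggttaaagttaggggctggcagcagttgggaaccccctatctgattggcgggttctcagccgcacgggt
Uhrf1: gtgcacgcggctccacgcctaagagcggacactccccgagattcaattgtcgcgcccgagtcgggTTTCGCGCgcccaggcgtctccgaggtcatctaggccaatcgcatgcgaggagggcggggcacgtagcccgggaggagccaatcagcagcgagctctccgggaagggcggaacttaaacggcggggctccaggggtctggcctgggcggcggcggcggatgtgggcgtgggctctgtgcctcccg
Cdc25a: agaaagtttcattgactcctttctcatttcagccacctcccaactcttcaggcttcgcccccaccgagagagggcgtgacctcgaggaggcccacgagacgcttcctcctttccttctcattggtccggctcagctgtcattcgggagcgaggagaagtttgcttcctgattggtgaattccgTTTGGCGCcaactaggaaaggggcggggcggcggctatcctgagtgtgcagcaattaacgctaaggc
Pold2: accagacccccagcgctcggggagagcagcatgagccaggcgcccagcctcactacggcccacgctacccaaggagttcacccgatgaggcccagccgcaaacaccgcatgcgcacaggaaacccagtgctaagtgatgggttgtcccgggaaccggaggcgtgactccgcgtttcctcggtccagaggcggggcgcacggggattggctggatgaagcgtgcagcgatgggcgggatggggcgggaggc

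**Figure D3:**
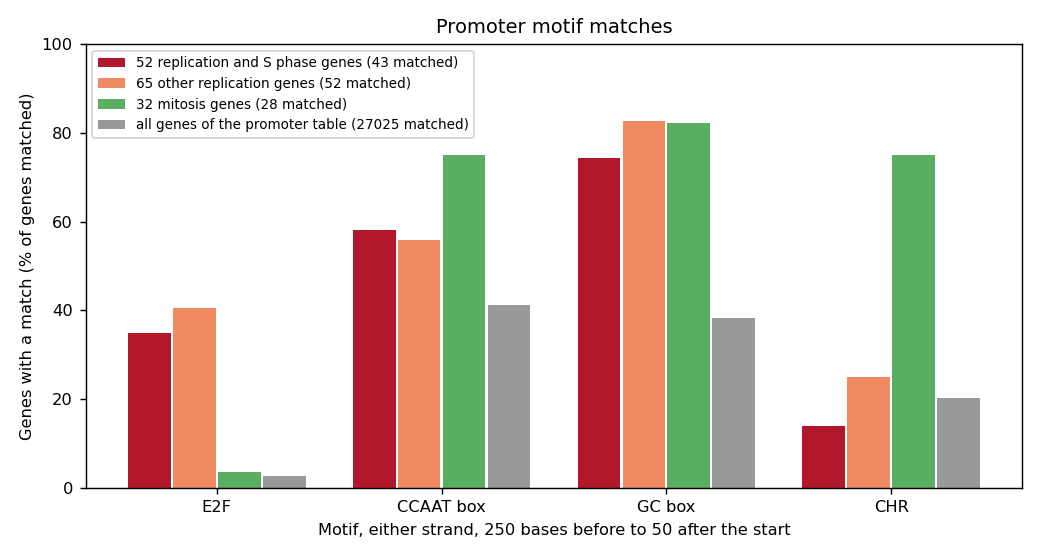
Share of genes whose promoter held each motif (bars, % of the genes matched to a promoter), for the 52 replication and S phase genes, 65 other replication genes, 32 mitosis genes and all genes of the table. E2F matches stand at 34.9% and 40.4% in the replication lists, and CHR matches at 75% in the mitosis list.

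Of the 5 origin licensing genes, 4 were lower in rcCHIL3 on both days, and Orc1 was called on neither. Geminin had the largest change. Gmnn encodes geminin, which binds Cdt1 and prevents a second round of licensing. Its signal was 29.2 and 34.2 in rcCHIL3 and 100 and 94 in MHM + GF at 7D. At 3D it was 52.7 and 56.2 in rcCHIL3 and 327 and 345 in MHM + GF. The 4 groups did not overlap, and the log2 change between the media was -1.18 (SE 0.09, adjusted p = 2.3e-06) at 7D and -2.26 (SE 0.09, adjusted p = 5.3e-09) at 3D. Cdt1, the licensing factor itself, had 70.3 and 72.3 in rcCHIL3 and 174 and 166 in MHM + GF at 7D, and 105 and 101 in rcCHIL3 and 225 and 214 in MHM + GF at 3D. For Cdt1 the difference was similar in size on both days, -1.05 and -0.96 (SE 0.08 each), and the change of that difference with time did not pass the test. Orc6, a subunit of the origin recognition complex, was lower by smaller steps, with 93.4 and 93.0 in rcCHIL3 and 117 on both MHM + GF arrays at 7D (-0.27, SE 0.09, adjusted p = 0.024). That call was lost when any of the 7D arrays was left out (adjusted p = 0.072 to 0.082). At 3D Orc6 had 107 and 110 in rcCHIL3 and 149 and 167 in MHM + GF (-0.47, SE 0.09).

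Cdc6, the ATPase that loads the helicase, was dim. It had 5.2 and 3.6 in rcCHIL3 and 16.4 and 19.6 in MHM + GF at 7D, and 8.47 and 9.65 in rcCHIL3 and 39.6 and 34.6 in MHM + GF at 3D. It was lower in rcCHIL3 on both days in the fit over all probe sets (-0.64, adjusted p = 0.0051 at 7D, and -0.97, adjusted p = 0.00032 at 3D). Orc1, the largest subunit of the origin recognition complex, was below 50 on all arrays and did not pass on either day. Its signals were 16.4 and 15.3 in rcCHIL3 and 10.3 and 11 in MHM + GF at 7D, and 8.10 and 10.4 in rcCHIL3 and 34.7 and 15.5 in MHM + GF at 3D. The MHM + GF 3D arrays of Orc1 were further apart than the replicates of any other group.

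All 6 subunits of the MCM2-7 helicase, the ring that unwinds DNA at the fork, were lower in rcCHIL3 on both days, with a median log2 change of -1.23 at 7D and -1.53 at 3D. Mcm5 had the widest gap. It had 35.5 and 36.9 in rcCHIL3 and 206 and 212 in MHM + GF at 7D (-2.03, SE 0.08, adjusted p = 1.8e-08), and 82.2 and 74.3 in rcCHIL3 and 402 on both MHM + GF arrays at 3D (-2.10, SE 0.08, adjusted p = 3.6e-09). Its rcCHIL3 mean at 7D was 0.173 times that of MHM + GF. Mcm7, the brightest subunit probe set, had 195 and 175 in rcCHIL3 and 668 and 698 in MHM + GF at 7D (-1.78, SE 0.07). At 3D it had 312 and 310 in rcCHIL3 and 843 and 841 in MHM + GF (-1.38, SE 0.07). Mcm7 was the 1 gene of the 43 for which a larger deficit in rcCHIL3 at 7D than at 3D passed the test (difference of the changes -0.40, SE 0.10, adjusted p = 0.0067). That call was lost on the deposited scale and with the mean of all its probe sets.

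Mcm3 and Mcm6 showed another pattern, with overlapping signals in rcCHIL3 at 7D and 3D. Mcm3 had 44.1 and 37.0 in rcCHIL3 and 121 and 110 in MHM + GF at 7D, and 41.4 and 38.3 in rcCHIL3 and 209 and 193 in MHM + GF at 3D. For Mcm6 the signals were 85.1 and 81.4 in rcCHIL3 and 195 and 180 in MHM + GF at 7D, and 84.8 and 76.8 in rcCHIL3 and 277 and 325 in MHM + GF at 3D. Between 7D and 3D, neither gene passed the test in rcCHIL3 (0.02 and 0.04), and both were lower at 7D in MHM + GF (-0.70 and -0.63). Their difference between the media was -1.16 and -1.01 at 7D and -1.88 and -1.67 at 3D.

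Mcm4 was the subunit with the smallest gap at 7D. It had 198 on both rcCHIL3 arrays and 274 and 228 in MHM + GF (-0.31, SE 0.09, adjusted p = 0.014), and 152 and 165 in rcCHIL3 and 391 and 378 in MHM + GF at 3D (-1.19, SE 0.09). The 7D call was lost without MHM + GF 7D replicate 1, rcCHIL3 7D replicate 1 or rcCHIL3 7D replicate 2 (-0.31 to -0.19, adjusted p = 0.057 to 0.12). Mcm4 was also the 1 subunit higher in rcCHIL3 at 7D than at 3D (0.29, adjusted p = 0.023), a call lost without rcCHIL3 3D replicate 1 or either rcCHIL3 7D array (0.24 to 0.29, adjusted p = 0.078 to 0.15). Mcm2 had 45.7 and 30.8 in rcCHIL3 and 117 and 128 in MHM + GF at 7D, and 72.7 and 44.4 in rcCHIL3 and 178 and 139 in MHM + GF at 3D. Its replicates were further apart than those of the other subunits (SE 0.17), and the changes were -1.30 and -1.20. A second Mcm2 probe set, with 29.0 and 32.6 in rcCHIL3 and 94.5 and 96.8 in MHM + GF at 7D, and 35.0 and 43.3 in rcCHIL3 and 162 and 172 in MHM + GF at 3D, had closer replicates and the same direction.

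**Figure D4:**
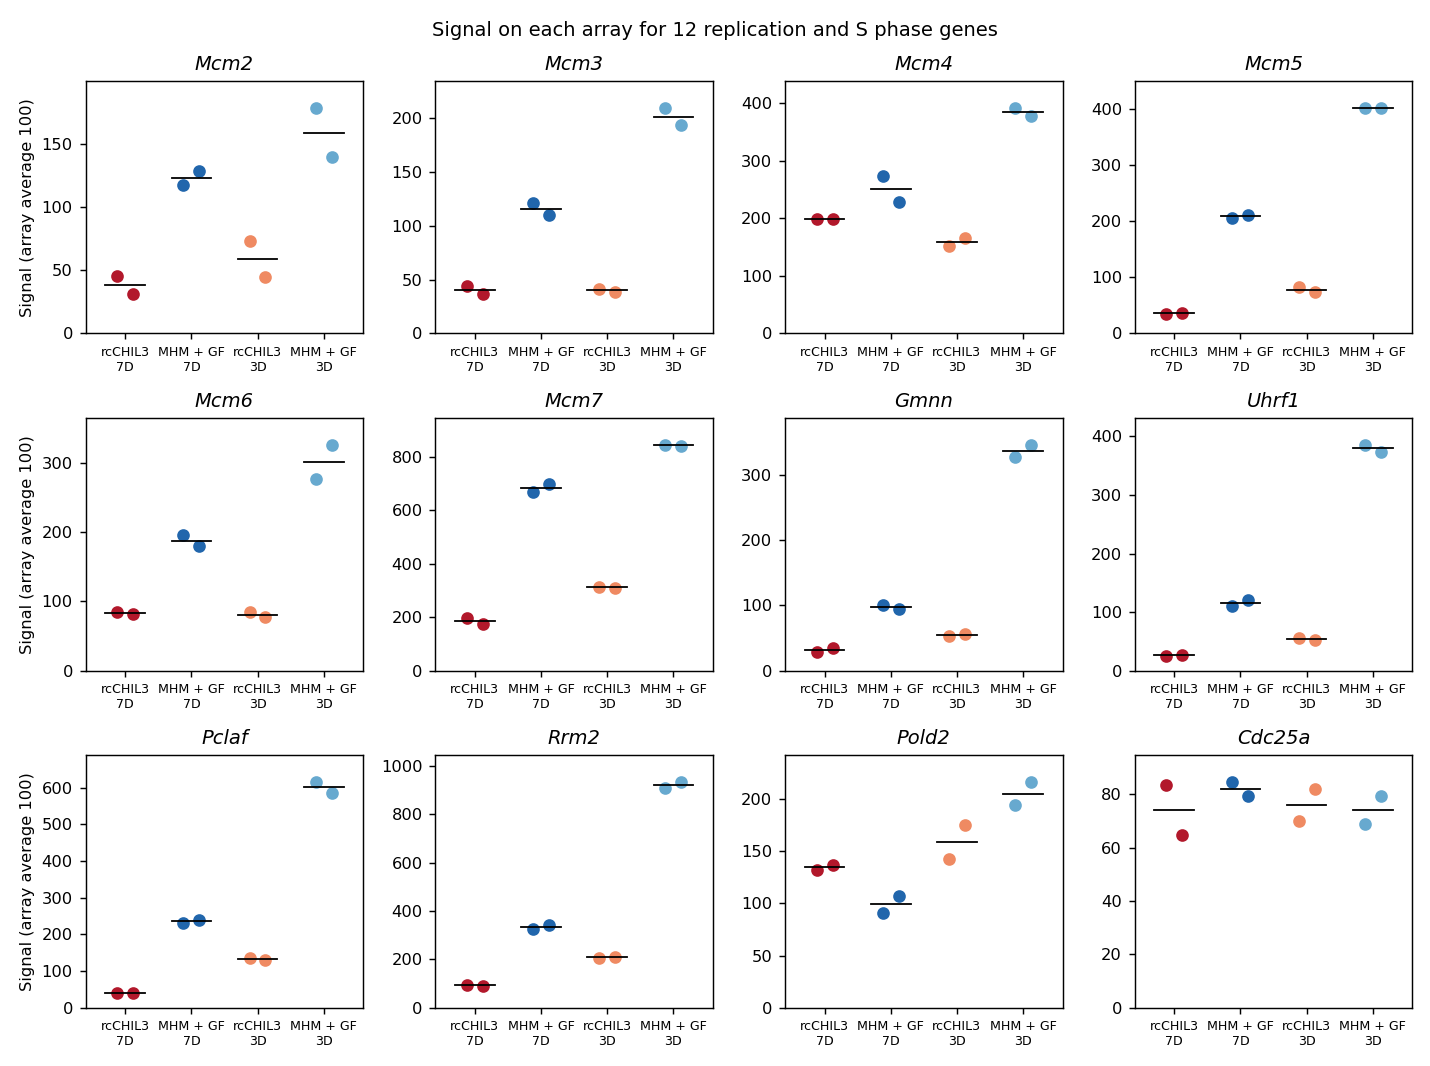
Signal (array average 100) of 12 genes on each array (points, left to right rcCHIL3 7D, MHM + GF 7D, rcCHIL3 3D, MHM + GF 3D) with the group mean (line). The 6 MCM subunits lie lower in rcCHIL3 on both days, Pold2 is higher in rcCHIL3 at 7D, and the arrays of the media overlap for Cdc25a.

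Genes that turn the loaded helicase into an active fork were lower in rcCHIL3, with 4 of 5 called at 7D and 5 of 5 at 3D, and Cdc45, under the filter, was lower at 3D (-0.92, adjusted p = 0.0013) with no call at 7D (-0.32, adjusted p = 0.16). Dbf4 encodes the activating partner of the kinase Cdc7. It had 47.3 and 45.1 in rcCHIL3 and 91.4 and 83.8 in MHM + GF at 7D (-0.70, SE 0.09, adjusted p = 0.0001), and 77.4 and 79.8 in rcCHIL3 and 239 and 264 in MHM + GF at 3D (-1.46, SE 0.09). The kinase subunit gene Cdc7 itself was lower at 3D (-1.10, SE 0.10) and did not pass at 7D (-0.26, adjusted p = 0.054). Gins1 and Gins2 belong to the 4-subunit GINS complex that joins Cdc45 and the MCM ring. For Gins1 the signals were 17.6 and 22.1 in rcCHIL3 and 64.1 and 59.5 in MHM + GF at 7D, and 26.7 and 26.6 in rcCHIL3 and 91.6 and 110 in MHM + GF at 3D (-1.04 and -1.37, SE 0.11 each). Gins2 had 33.3 and 39.2 in rcCHIL3 and 63.6 and 70.9 in MHM + GF at 7D, and 46.9 and 39.3 in rcCHIL3 and 130 and 165 in MHM + GF at 3D (-0.63 and -1.40, SE 0.12 each). Mcm10, a scaffold of the starting fork, was lower on both days (-0.32 and -0.77). Its 7D call was lost without MHM + GF 7D replicate 1 or rcCHIL3 7D replicate 1 (-0.26 to -0.24, adjusted p = 0.14 to 0.16).

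DNA polymerase and primase genes held the 1 exception in direction, Pold2. Of these 8 genes, 7 were lower in rcCHIL3 at 7D and all 8 at 3D. Pold2, which encodes a small subunit of the lagging-strand polymerase delta, had 132 and 137 in rcCHIL3 and 90.9 and 107 in MHM + GF at 7D (0.39, SE 0.11, adjusted p = 0.012). At 3D it had 143 and 175 in rcCHIL3 and 194 and 216 in MHM + GF (-0.33, SE 0.11, adjusted p = 0.021). The arrays of the media did not overlap on either day. The 7D call was lost without MHM + GF 7D replicate 1 or rcCHIL3 7D replicate 2 (0.29 to 0.36, adjusted p = 0.062 to 0.083), and the 3D call without MHM + GF 3D replicate 2 or rcCHIL3 3D replicate 1 (-0.26 to -0.20, adjusted p = 0.13 to 0.20). Pold1, the catalytic subunit of the same enzyme, was lower in rcCHIL3 on both days by its brightest probe set, with 33.9 and 42.8 in rcCHIL3 and 70.3 and 81.9 in MHM + GF at 7D (-0.72, SE 0.12), and 45.1 and 44.6 in rcCHIL3 and 118 and 147 in MHM + GF at 3D (-1.23, SE 0.12). A second Pold1 probe set did not pass at 7D, with 34.1 and 31.6 in rcCHIL3 and 39.8 and 34.6 in MHM + GF (-0.11, adjusted p = 0.46). It was lower at 3D (-0.88, adjusted p = 7.4e-05).

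Pole, the catalytic subunit of the leading-strand polymerase epsilon, was near the lower end of the scale in rcCHIL3. It had 4.14 and 1.70 in rcCHIL3 and 30.0 and 25.4 in MHM + GF at 7D, and 11 and 17.7 in rcCHIL3 and 70.9 and 71.1 in MHM + GF at 3D (-1.06 and -1.41, SE 0.12 each). Prim1, the primase that lays down RNA primers, had 91.3 and 86.0 in rcCHIL3 and 160 and 161 in MHM + GF at 7D, and 98.7 and 85.1 in rcCHIL3 and 228 and 239 in MHM + GF at 3D (-0.73 and -1.18, SE 0.09 each). The other 4 genes of the group (Pola1, Pola2, Prim2 and Pole2) had changes of -0.87 to -0.35 at 7D and -0.89 to -0.41 at 3D. A second Prim2 probe set did not pass at 7D (adjusted p = 0.99) and was lower at 3D (-0.56, adjusted p = 0.00075). Among the 4 genes, Pola1 lost its 3D call without rcCHIL3 3D replicate 2 (-0.29), and Pola2 its 7D call without MHM + GF 7D replicate 1 or either rcCHIL3 7D array (-0.36 to -0.24).

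In the clamp group, Pclaf had the widest gap between the media. PCNA is the ring that holds polymerases on DNA, and Pclaf encodes a small protein that binds it. Pclaf had 39.3 and 40.5 in rcCHIL3 and 231 and 240 in MHM + GF at 7D (-2.09, SE 0.07, adjusted p = 8.9e-09), and 136 and 129 in rcCHIL3 and 615 and 587 in MHM + GF at 3D (-2.03, SE 0.07, adjusted p = 2.8e-09). Pcna was the brightest of the 51 genes, averaging 781 ± 78.8 in rcCHIL3 7D, 1020 ± 41.6 in MHM + GF 7D, 854 ± 23.9 in rcCHIL3 3D and 1350 ± 48.1 in MHM + GF 3D (SD, n = 2 arrays). Its changes were -0.38 (SE 0.07) and -0.65 (SE 0.07) in the limma fit, with adjusted p = 0.0018 and adjusted p = 2.3e-05.

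Clamp loader genes, which encode the RFC complex that opens the PCNA ring, were lower at 3D in all 4 cases. Rfc5 had 27.8 and 22.7 in rcCHIL3 and 62.2 and 51.2 in MHM + GF at 7D, and 34.0 and 30.3 in rcCHIL3 and 143 and 141 in MHM + GF at 3D (-0.76 and -1.64, SE 0.11 each). For Rfc4 the signals were 81.1 and 76.6 in rcCHIL3 and 112 and 97.8 in MHM + GF at 7D, and 72.2 and 75.9 in rcCHIL3 and 205 and 221 in MHM + GF at 3D (-0.33 and -1.31, SE 0.09 each). Without MHM + GF 7D replicate 1 or rcCHIL3 7D replicate 2, Rfc4 lost its 7D call (-0.30 to -0.25, adjusted p = 0.067 to 0.088). Rfc2 had 128 and 127 in rcCHIL3 and 124 and 110 in MHM + GF at 7D, with no call (0.11, adjusted p = 0.37), and 86.0 and 101 in rcCHIL3 and 169 and 175 in MHM + GF at 3D (-0.76, SE 0.09).

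RPA coats the single strand behind the helicase and also serves in repair. Rpa1 encodes its largest subunit, and the media overlapped for Rpa1 at 7D, with 692 and 676 in rcCHIL3 and 676 and 738 in MHM + GF at 7D (-0.05, SE 0.07, adjusted p = 0.61). At 3D it had 526 and 565 in rcCHIL3 and 644 and 651 in MHM + GF (-0.24, SE 0.07, adjusted p = 0.011), a call lost without rcCHIL3 3D replicate 1 (-0.19, adjusted p = 0.096). For Rpa3, the small subunit, the signals were 233 and 270 in rcCHIL3 and 266 and 292 in MHM + GF at 7D, where the arrays overlapped (-0.14, adjusted p = 0.20). Rpa3 had 269 and 278 in rcCHIL3 and 315 and 344 in MHM + GF at 3D (-0.25, adjusted p = 0.029), and that call was lost without MHM + GF 3D replicate 2 or either rcCHIL3 3D array (-0.27 to -0.19, adjusted p = 0.077 to 0.17). Rpa2 had changes of -0.28 at 7D and -0.71 at 3D, and the 7D call was lost without MHM + GF 7D replicate 1 or either rcCHIL3 7D array (-0.30 to -0.22, adjusted p = 0.084 to 0.16). The remaining clamp loader gene, Rfc3, had -0.72 and -0.96.

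Lagging strands are made as Okazaki fragments, which the nuclease Fen1 trims and DNA ligase 1 (Lig1) seals. Lig1 had 61.4 and 58.6 in rcCHIL3 and 130 and 124 in MHM + GF at 7D, and 69.8 and 72.7 in rcCHIL3 and 240 and 237 in MHM + GF at 3D (-0.88 and -1.5, SE 0.08 each). Fen1 was read by a probe set whose replicates disagreed, with 96.5 and 80.7 in rcCHIL3 and 113 and 112 in MHM + GF at 7D, and 64.7 and 65 in rcCHIL3 and 149 and 74.8 in MHM + GF at 3D. It did not pass at 7D (-0.29, SE 0.20, adjusted p = 0.26) and passed at 3D (-0.58, SE 0.20, adjusted p = 0.031). That call was lost without MHM + GF 3D replicate 1 or either rcCHIL3 3D array (-0.58 to -0.16, adjusted p = 0.11 to 0.31). A second Fen1 probe set had 33.4 and 26.1 in rcCHIL3 and 53.4 and 46.5 in MHM + GF at 7D, and 37.6 and 31.0 in rcCHIL3 and 52.3 and 56.5 in MHM + GF at 3D, and it was lower in rcCHIL3 on both days (-0.49, adjusted p = 0.0047, and -0.46, adjusted p = 0.0058).

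Genes of nucleotide supply were lower in rcCHIL3 in all 4 cases past the filter on both days, with a median of -0.82 at 7D and -1.73 at 3D. Ribonucleotide reductase makes the building blocks of DNA, and its subunit Rrm2 is present mainly in S phase. Rrm2 had 95.6 and 90.2 in rcCHIL3 and 325 and 343 in MHM + GF at 7D (-1.65, SE 0.07, adjusted p = 2.3e-08). At 3D it had 207 and 209 in rcCHIL3 and 908 and 932 in MHM + GF (-2.04, SE 0.07, adjusted p = 1.4e-09). The large subunit Rrm1 had 135 and 120 in rcCHIL3 and 199 and 192 in MHM + GF at 7D, and 118 and 114 in rcCHIL3 and 413 and 371 in MHM + GF at 3D (-0.54 and -1.59, SE 0.08 each). A second Rrm1 probe set did not pass at 7D, with 50.3 and 57.4 in rcCHIL3 and 49.6 and 45.4 in MHM + GF (0.13, adjusted p = 0.31), and was lower at 3D, with 48.8 and 44.7 in rcCHIL3 and 133 and 123 in MHM + GF (-1.15, adjusted p = 2.1e-06). Between 7D and 3D in rcCHIL3, Rrm2 was lower at 7D (-1.02, adjusted p = 1.1e-06) and Rrm1 did not pass (0.12, adjusted p = 0.31). Tk1, a thymidine salvage kinase, had 0.289 and 0.407 in rcCHIL3 and 19.8 and 23.9 in MHM + GF at 7D, and 13.0 and 12.3 in rcCHIL3 and 103 and 96.2 in MHM + GF at 3D (-1.04 and -1.87, SE 0.10 each). Only the MHM + GF 3D arrays of Tk1 reached a signal of 50, and the added 20 shrinks the change of so dim a gene. Dut, which removes dUTP, had -0.61 and -1.13 (SE 0.08 each).

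Tyms, thymidylate synthase, could not be followed. Its probe sets annotated to Tyms alone did not exceed 12.2 on any array, with 10.2 and 6.68 in rcCHIL3 and 7.39 and 4.56 in MHM + GF at 7D, and 4.81 and 8.49 in rcCHIL3 and 12.2 and 11.8 in MHM + GF at 3D. Another Tyms probe set was annotated to a second gene as well and was not used.

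On the log2(signal + 20) scale, Uhrf1 had the largest change of all 51 genes at 3D, and by the ratio of group means (0.143) it came after Tk1 (0.128). It encodes a protein that reads half-methylated DNA behind the fork and recruits the maintenance methyltransferase. Its signals were 25.7 and 27.4 in rcCHIL3 and 111 and 121 in MHM + GF at 7D (-1.55, SE 0.09, adjusted p = 1.9e-07), and 56.0 and 52.3 in rcCHIL3 and 385 and 374 in MHM + GF at 3D (-2.43, SE 0.09, adjusted p = 2.2e-09). Chaf1b, a subunit of the CAF-1 histone chaperone, was dim, with 7.58 and 7.06 in rcCHIL3 and 29.3 and 22.6 in MHM + GF at 7D, and 13.3 and 12 in rcCHIL3 and 35.3 and 33.1 in MHM + GF at 3D (-0.75 and -0.73, SE 0.11 each, both lower over all probe sets). Slbp binds the stem-loop of replication-dependent histone mRNA. It had 250 and 236 in rcCHIL3 and 300 and 274 in MHM + GF at 7D, and 269 and 247 in rcCHIL3 and 407 and 378 in MHM + GF at 3D (-0.22 and -0.57, SE 0.08 each). The 7D call of Slbp was lost without MHM + GF 7D replicate 1 or either rcCHIL3 7D array (-0.26 to -0.16, adjusted p = 0.061 to 0.18). A dimmer second Slbp probe set had 40.4 and 46.5 in rcCHIL3 and 81.8 and 84.3 in MHM + GF at 7D, and 23.9 and 26.8 in rcCHIL3 and 33.4 and 29.0 in MHM + GF at 3D, so it went the other way between 7D and 3D.

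Of the 4 regulators of the G1/S step, 1 passed the filter (Cdc25a), and the other 3 were read over all probe sets. Cdc25a, the phosphatase that activates CDK2, was read by a brightest probe set that overlapped on both days, with 83.4 and 64.8 in rcCHIL3 and 84.4 and 79.1 in MHM + GF at 7D (-0.12, SE 0.12, adjusted p = 0.43), and 70.1 and 81.8 in rcCHIL3 and 68.8 and 79.1 in MHM + GF at 3D (0.03, SE 0.12, adjusted p = 0.85). A second Cdc25a probe set past the filter, with 80.8 and 62.0 in rcCHIL3 and 91.2 and 97.5 in MHM + GF at 7D, did not overlap there and was lower in rcCHIL3 (-0.33, adjusted p = 0.047), with no call at 3D (0.07, adjusted p = 0.66). The result at 7D thus depended on the probe set. The cyclin E genes, whose products bind CDK2, were below the filter. Ccne1 had 16.6 and 17.4 in rcCHIL3 and 29.4 and 22.8 in MHM + GF at 7D, and 19.1 and 20.3 in rcCHIL3 and 51.9 and 43.2 in MHM + GF at 3D. For Ccne2 the signals were 16.1 and 11.5 in rcCHIL3 and 19.3 and 24.0 in MHM + GF at 7D, and 15.4 and 14.7 in rcCHIL3 and 42.5 and 49.9 in MHM + GF at 3D. Over all probe sets both were lower at 3D (-0.76, adjusted p = 0.0021, and -0.91, adjusted p = 0.00091) and neither passed at 7D (-0.31 each). A second, dimmer Ccne1 probe set did not pass at 3D, with 15.9 and 16.5 in rcCHIL3 and 30 and 30.2 in MHM + GF (-0.47, adjusted p = 0.14). E2f1, an activator of this gene group and one of its targets, had 8.51 and 16.9 in rcCHIL3 and 24.7 and 27.3 in MHM + GF at 7D (-0.50, adjusted p = 0.042). At 3D it had 10.5 and 11.9 in rcCHIL3 and 17.6 and 20.8 in MHM + GF (-0.33, adjusted p = 0.15). A second, equally dim E2f1 probe set gave the opposite pattern of calls, with 16.3 and 10.7 in rcCHIL3 and 17.9 and 17.3 in MHM + GF at 7D (-0.17, adjusted p = 0.39), and 6.62 and 5.84 in rcCHIL3 and 24.6 and 25.0 in MHM + GF at 3D (-0.77, adjusted p = 0.0015). The 7D call of E2f1 was lost without any of 7 arrays, with the exception of rcCHIL3 7D replicate 2 (-0.54 to -0.32, adjusted p = 0.059 to 0.21).

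The 3 checkpoint and fork protection genes were lower on both days. Brca1 and Chek1 passed the filter only through MHM + GF arrays, and all 3 were also lower in the fit without a filter. Chek1, the kinase that halts the cycle at stalled forks, had 41.2 and 34.9 in rcCHIL3 and 63.9 and 71.8 in MHM + GF at 7D, and 40.4 and 46.3 in rcCHIL3 and 112 on both MHM + GF arrays at 3D (-0.60 and -1.06, SE 0.10 each). Brca1, known for repair by recombination and for guarding forks, had 42.4 and 41.2 in rcCHIL3 and 74.0 and 69.1 in MHM + GF at 7D, and 44.4 and 37.7 in rcCHIL3 and 92.7 and 106 in MHM + GF at 3D (-0.57 and -0.97, SE 0.10 each). Tipin, part of a complex that travels with the fork, had 184 and 198 in rcCHIL3 and 234 and 257 in MHM + GF at 7D, and 202 and 205 in rcCHIL3 and 333 and 359 in MHM + GF at 3D (-0.33 and -0.71, SE 0.08 each).

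Time was compared within each medium. In rcCHIL3, 11 of the 43 genes were lower at 7D than at 3D, 4 were higher and 28 did not pass, where 17.9% of all tested probe sets were lower and 18.0% were higher, and this count was therefore near the background. The 11 were Cdt1, Gmnn, Mcm5, Mcm7, Dbf4, Pole, Pole2, Pclaf, Rrm2, Tk1 and Uhrf1, led by Pclaf (-1.35, SE 0.07) and Rrm2 (-1.02, SE 0.07). The 4 that were higher at 7D were Mcm4, Rfc2 (0.38), Rpa1 (0.32) and Rpa2 (0.37). Of these, Rfc2 lost its call without rcCHIL3 3D replicate 1 (0.28, adjusted p = 0.086) and Rpa2 without rcCHIL3 3D replicate 2 or rcCHIL3 7D replicate 2 (0.26 to 0.35, adjusted p = 0.062 to 0.12). The median log2 change of the 43 genes was -0.13, against 0 over all tested probe sets.

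In MHM + GF, 37 of the 43 genes were lower at 7D than at 3D, none was higher and 6 did not pass, where 26.0% of all tested probe sets were lower and 31.1% were higher. The median was -0.58, against 0.04 over all tested probe sets. Over all probe sets, 39 of the 51 genes were lower, as were 10.6% of all probe sets. For Mcm10, Pola2, Pole, Pole2 and Tk1 this direction was fixed by the filter. The largest falls among the others were those of Gmnn (-1.61, SE 0.09), Uhrf1 (-1.56, SE 0.09), Rrm2 (-1.41, SE 0.07) and Dbf4 (-1.33, SE 0.09). Mcm2, Pola1, Rpa1, Rpa2, Fen1 and Cdc25a were the 6 that did not pass. Calls in MHM + GF were lost for Brca1 without MHM + GF 3D replicate 2 (-0.30, adjusted p = 0.068), for Rfc3 without MHM + GF 3D replicate 1 (-0.31, adjusted p = 0.055), for Pola2 without either MHM + GF 3D array or MHM + GF 7D replicate 2 (-0.34 to -0.18, adjusted p = 0.055 to 0.25) and for Rpa3 without MHM + GF 3D replicate 2, MHM + GF 7D replicate 1 or either rcCHIL3 3D array (-0.22 to -0.16, adjusted p = 0.06 to 0.22). Fen1 was not called in the fit with all arrays. Its change was -0.35 without MHM + GF 3D replicate 2, the array with the dimmer Fen1 signal of that pair. Without MHM + GF 3D replicate 1 its change was positive instead, so the direction depended on the array left out.

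**Figure D5:**
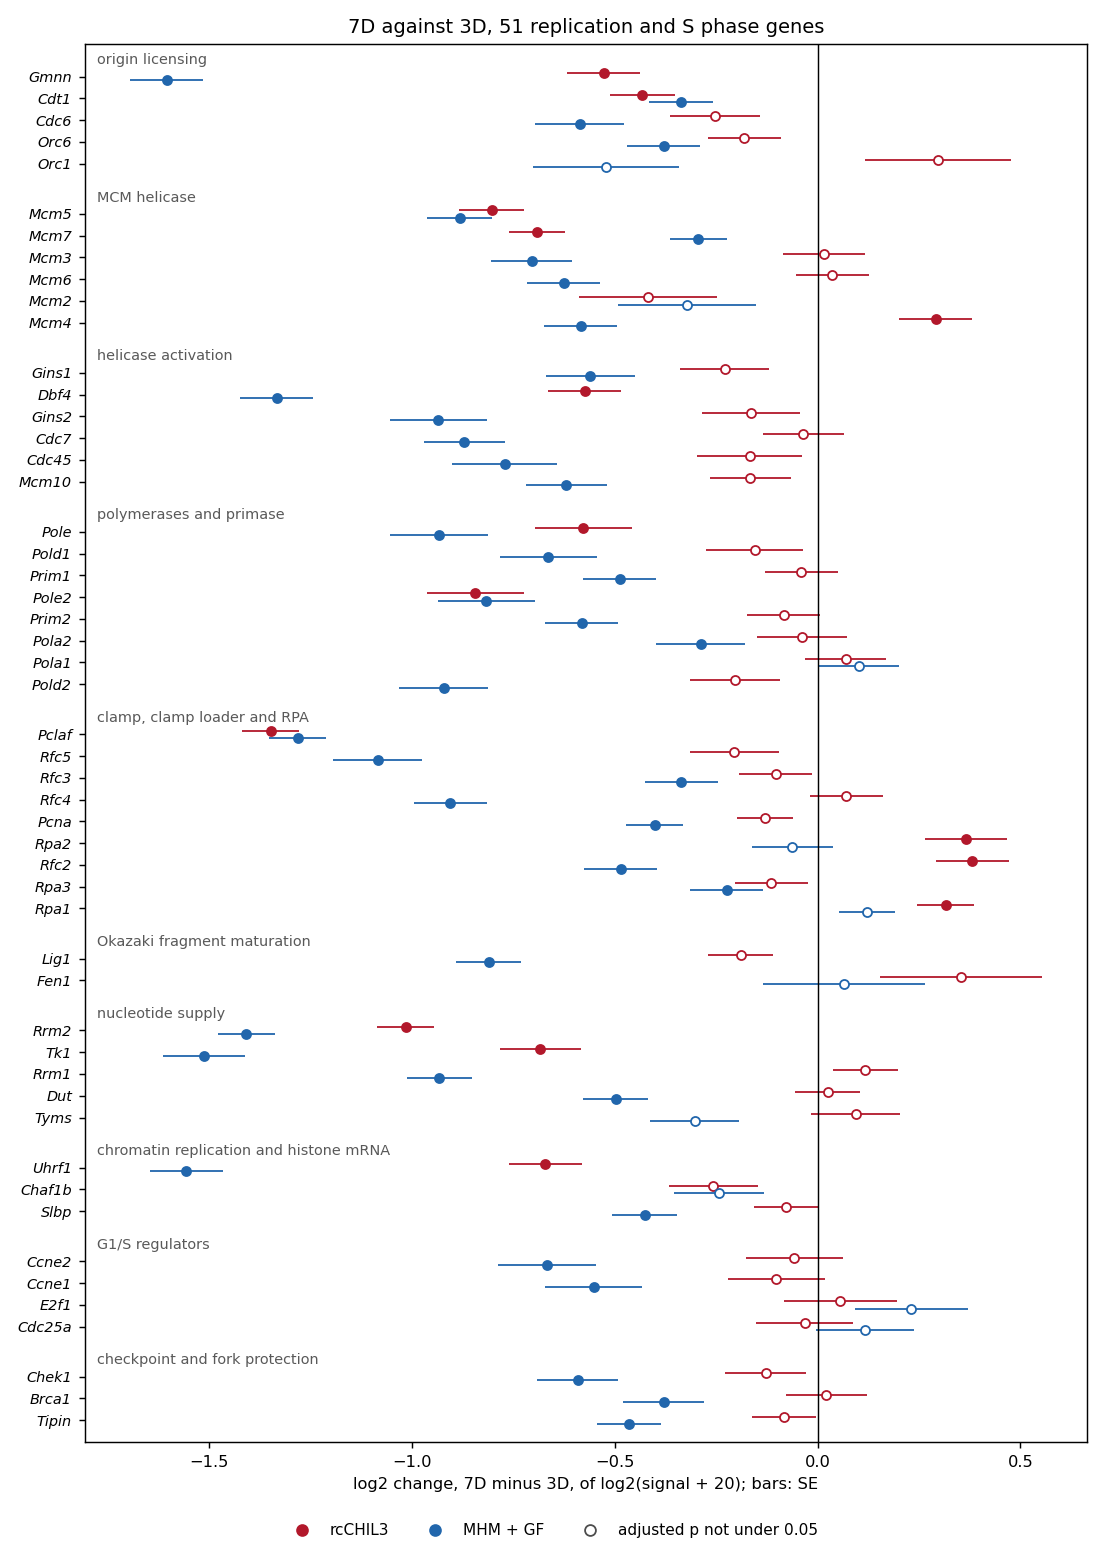
Log2 change between 7D and 3D in rcCHIL3 (red) and in MHM + GF (blue) for the 51 genes, by role, with bars for the SE and filled points for an adjusted p under 0.05. Most blue points lie left of 0 and many red points are open and near 0, whereas both points of Mcm5, Pclaf, Pole2, Rrm2 and Uhrf1 are filled and left of 0.

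Whether the difference between the media itself changed with time was tested as the rcCHIL3 effect at 7D minus the rcCHIL3 effect at 3D. For 26 of the 43 genes this value was above 0, so that the gap was smaller or turned at 7D, for 1 (Mcm7) it was below 0, and 16 did not pass. Over all tested probe sets, 18.7% were above and 22.7% below. The median over the 43 genes was 0.43, against -0.04 over all tested probe sets. The largest values were 1.08 for Gmnn (SE 0.13, adjusted p = 6.1e-05), 1.05 for Rrm1 (SE 0.12, adjusted p = 4.2e-05) and 0.98 for Rfc4 (SE 0.13, adjusted p = 0.00013). By contrast, Cdt1 (-0.10), Mcm5 (0.08), Pclaf (-0.07) and Pole2 (-0.03) had values under their SE or near it and did not pass, with SE of 0.11, 0.11, 0.11 and 0.17. Among the 26, Brca1, Chek1, Mcm10, Pold1, Prim1, Rpa2, Slbp and Tipin lost the call without single arrays (adjusted p = 0.05 to 0.15). The 5 comparisons share arrays and are not independent of each other.

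The 65 other replication and S phase genes, listed by role with earlier results of these arrays known, were also mostly lower in rcCHIL3. Of 46 past the filter, 28 were lower and 3 higher in rcCHIL3 at 7D (median -0.30), where 22.7% of all tested probe sets were lower. At 3D, 33 were lower and 1 higher (median -0.52), where 22.5% of all tested probe sets were lower. Mtbp, Dtl, Ung, E2f8, Fbxo5 and Blm passed only through the MHM + GF 3D arrays, which fixed their direction at 3D. Timeless, Clspn, Wdhd1, Dna2, Atad5, Hells, Dctd, Rbl1, Rad51ap1 and Brca2 passed only through MHM + GF arrays, and Pold3 needed them to pass. For all of these genes the filter favoured a lower value in rcCHIL3. Over all probe sets, 28 of the 61 with a probe set were lower at 7D (7.90% of all probe sets) and 40 at 3D (9.29%). Whether they differed from the 43 was not tested. Topoisomerase II (Top2a) had 41.6 and 36.9 in rcCHIL3 and 182 and 169 in MHM + GF at 7D, and 115 and 110 in rcCHIL3 and 815 and 845 in MHM + GF at 3D (-1.72 and -2.68, SE 0.08 each). E2f3, an activating E2F factor, was the 1 higher in rcCHIL3 at 3D, with 149 and 132 in rcCHIL3 and 96.5 and 92.4 in MHM + GF (0.49, SE 0.10, adjusted p = 0.0013). At 7D the largest called rise was that of Orc5, another subunit of the origin recognition complex, with 181 and 164 in rcCHIL3 and 140 and 137 in MHM + GF (0.29, SE 0.08, adjusted p = 0.013).

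Mitosis genes, a list of 32 with 30 past the filter, were lower in rcCHIL3 as well. In rcCHIL3, 29 of the 30 were lower at 7D (median -0.77) and all 30 at 3D (median -2.20). Of the 30, 15 passed the filter only through the MHM + GF 3D arrays, which fixed their direction at 3D. Kif2c, Prc1, Anln and Ect2 passed only through MHM + GF arrays of both days, so the filter favoured a lower value in rcCHIL3 for them too. Over all probe sets, 30 of the 31 with a probe set were lower at 7D (7.90% of all probe sets) and 31 at 3D (9.29%). The median at 3D was further from 0 than the -1.13 of the replication genes, and that difference was not tested. Over all probe sets, the rcCHIL3 effect at 7D minus that at 3D was above 0 for 31 of the 31 (median 1.44), as for 6.82% of all probe sets. Mki67, whose product marks cycling cells, had 25.7 and 17.6 in rcCHIL3 and 129 and 125 in MHM + GF at 7D, and 92.4 and 82.2 in rcCHIL3 and 738 and 765 in MHM + GF at 3D. The largest fall at 3D was that of Cdc20, an activator of the anaphase-promoting complex, with 114 and 121 in rcCHIL3 and 1070 and 1110 in MHM + GF (-3.02, SE 0.08), against 65.6 and 68.6 in rcCHIL3 and 111 and 127 in MHM + GF at 7D.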

How the data were processed

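Total RNA (100 ng) was labeled with a 3' IVT kit and hybridized to mouse genome 430 2.0 arrays. The extraction is given as Trizol in the labels and as a column kit in the methods. The authors deposited linear MAS5 signal intensities, made with Affymetrix Expression Console 1.1 per the labels, without detection calls. Each of 8 arrays was rescaled to an average of 100 over 45101 probe sets, and 64 array controls were then left out. Of all probe sets, 34945 carry 1 gene symbol, 932 several and 9224 none. All 4 groups were fitted together, in limma 3.58.1 under R 4.3.3, which left 4 degrees of freedom, with a mean-variance trend in eBayes, on log2(signal + 20) of probe sets reaching 50 on at least 2 arrays, with two-sided, Benjamini-Hochberg adjusted p-values and a threshold of 0.05. It was tested on simulated data. The methods name a two-group test only, which was run as an alternative. The 52 genes, the other lists, the markers and the rule for genes given on every array (up to 3 per role with the largest change, those called against the median, and those without a call) were chosen with earlier results of these data known. Promoters are from RefSeq (GRCm38.p6). Replicate numbers did not pair the arrays (r of deviations -0.011 to 0.102). Other offsets, filters, scalings, probe set choices and leaving out each array were tried. Figures were made with Python 3.11.15 and matplotlib 3.10.9. With 2 arrays per group, the number of arrays limits the precision.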

Additional observations from a re-analysis of the deposited data

Results flagged for a closer look

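The difference between rcCHIL3 and MHM + GF itself differed between 7D and 3D, in the limma test of that difference, for 26 genes with a value above 0 and for 1 gene with a value below 0. Mcm7 was that gene, at -0.40, with a larger log2 change between the media at 7D (-1.78) than at 3D (-1.38). This call was lost on the deposited scale and with the mean of all its probe sets. Pold2, at 0.72, was higher in rcCHIL3 at 7D and lower at 3D, the only one of the 43 genes past the filter that was called in opposite directions, and both of its calls between the media were lost when single arrays were left out. The 5 largest values were 1.08 for Gmnn, 1.05 for Rrm1, 0.98 for Rfc4, 0.88 for Uhrf1 and 0.88 for Rfc5. In each of these 5 the MHM + GF signal at 3D was the highest of the 4 groups. Groups of 2 arrays are too small for a test of single outlying arrays.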

How the results depend on the processing

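The number of genes called stayed within 1.5 times under all settings with the exception of the methods' t-test after Benjamini-Hochberg adjustment, which called 1 gene between the media at 7D, 25 at 3D, 0 between 7D and 3D in rcCHIL3 and 14 in MHM + GF. Unadjusted it called 29, 37, 14 and 33, against 37, 42, 15 and 37 by limma. The number of genes counted differed between settings. At 7D, 30 of 50 were called on the deposited scale and 36 of 51 without a filter, against 37 of 43 in the main fit. On the deposited scale, Orc6, Mcm4, Mcm10, Pola1, Pola2, Prim2, Rfc4, Rpa2, Slbp and Tipin lost their 7D call. Leaving out 1 array gave 29 to 38, 38 to 42, 13 to 16 and 35 to 37 calls, and 21 to 25 for the change of the rcCHIL3 effect. With the replicate block the counts were 37, 42, 16, 37 and 28, and the replicate numbers pair no samples. No median changed sign. At 7D the median between the media was -0.47 with an offset of 50, -0.84 with a floor of 10, -0.57 without a filter, -0.57 with the mean of all probe sets and -0.54 without probe sets that may read several transcripts. At 3D it was -1.31 on the deposited scale, -0.91 with the offset of 50, -0.97 without a filter, -1.34 with the floor, -1.16 centred on the median and -1.09 without those probe sets. In rcCHIL3 over time it was -0.06 on the deposited scale and -0.09 with either choice of probe sets. In MHM + GF over time it was -0.74, -0.45 and -0.70 on the deposited scale, with the offset and with the floor, -0.63 with quantile normalization, -0.61 centred, -0.53 with the mean of all probe sets and -0.63 without those that may read several transcripts. For the change of the rcCHIL3 effect it was 0.63, 0.36, 0.51 and 0.47 on the deposited scale, with the offset, with the floor and without those probe sets. Leaving out 1 array gave medians of -0.65 to -0.61 at 7D, -1.15 to -1.09 at 3D, -0.16 to -0.11 in rcCHIL3, -0.60 to -0.53 in MHM + GF and 0.40 to 0.44 for the change of the effect. Single genes that turned were Mcm10 at 7D (0.16) and the change of the effect of Mcm2 (0.47), both without those probe sets, Slbp with the mean of its probe sets (0.20 over time in rcCHIL3, 0.29 in MHM + GF and -0.09 for the change of the effect) and Fen1 over time in MHM + GF, at -0.35 without MHM + GF 3D replicate 2 and 0.48 without MHM + GF 3D replicate 1. The cause was not tested. Dim probe sets limit what can be said of the 8 genes under the filter.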

Other observations

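Genes that act before S phase were called in both directions between the media. Of 13 G1 cyclins, CDKs and CDK inhibitors past the filter, 6 were lower and 4 higher in rcCHIL3 at 7D (median 0.09). Over all tested probe sets, 22.7% were lower and 21.3% higher at 7D. At 3D, 10 were lower and 1 higher (median -0.51), where 22.5% of all tested probe sets were lower and 27.7% higher. Cdkn1a, which encodes the CDK inhibitor p21, had 1580 and 1710 in rcCHIL3 and 753 and 933 in MHM + GF at 7D (0.95, SE 0.09, adjusted p = 1e-05), and 1200 and 1290 in rcCHIL3 and 1110 and 1120 in MHM + GF at 3D (0.16, adjusted p = 0.17). Cdk6, a kinase that pairs with D cyclins, had 13.2 and 13.9 in rcCHIL3 and 66.3 and 72.1 in MHM + GF at 7D (-1.41, SE 0.10). It passed the filter only through MHM + GF arrays, which favoured this direction. Cdkn1c, the CDK inhibitor p57, had 76.9 and 70.5 in rcCHIL3 and 512 and 570 in MHM + GF at 3D (-2.58, SE 0.10, adjusted p = 3e-09), whereas at 7D it was higher in rcCHIL3, with 86.4 and 82.0 in rcCHIL3 and 64.4 and 53.9 in MHM + GF (0.40, adjusted p = 0.0061). Of 10 replication-coupled and variant histone genes, 2 had a probe set named alone, the variant genes H2afx and H2afz. Both were lower in rcCHIL3 on both days (medians -0.31 at 7D and -1.04 at 3D), where 22.7% and 22.5% of all tested probe sets were lower. None of the Hist1 and Hist2 genes of the list could be read.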
